A study of Mus musculus with 4 samples.

Results

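The receptors for colony-stimulating factors and related growth factors were examined in MDSCs cultured with or without EGCG. These are 8 genes of the 53465 listed, and they were chosen by symbol: Csf3r, Csf2ra, Csf2rb, Csf2rb2, Csf1r, Kit, Flt3 and Il3ra. MDSCs, myeloid cells arrested before full maturation, expand in hosts with tumors and restrain T cells, and 4T1 is a transplantable breast carcinoma line of BALB/c mice. In the study, male BALB/c mice aged 6 weeks received 4T1 cells under the skin, and Gr-1-positive spleen cells were collected with magnetic beads. The cells were cultured for 6 h either in medium alone (control group, 2 libraries) or with EGCG at 5 μg/mL (EGCG treatment group, 2 libraries), a polyphenol that is the chief catechin in green tea. All 4 libraries therefore came from tumor-bearing mice, and no cells of healthy mice were part of the comparison. The labels place the collection of the spleens on day 21, whereas the study's methods give an earlier time. The sources used here leave unsaid if libraries within a group came from separate mice or separate wells, so the p-values measure only the spread between these libraries.

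The number of reads counted on genes ranged from 17767318 to 18390385 per library. The 8 receptor genes together took 0.619% and 0.592% of the counts in control replicates 1 and 2, and 0.563% and 0.567% in EGCG replicates 1 and 2. Levels are given as CPM, that is, counts relative to the library total, with the totals scaled by the TMM method. Gr-1 marks both Ly-6G and Ly-6C, and markers of neutrophils (summed level 18720 to 21280 CPM per library) and of monocytes (985.1 to 1040 CPM) were abundant in every library. Markers of other cell types were also present. The red pulp macrophage markers summed to 270.1 to 340.6 CPM, the eosinophil markers to 753.4 to 1061 CPM, and the B cell markers to 216.1 to 251.2 CPM. Of the 4 markers of epithelial and 4T1 cells, Krt8 and Krt14 had 3 counts or fewer in each library, and Epcam had 65 and 59 counts in the control libraries, against 92 and 99 with EGCG. That list summed to 4.66 and 3.86 CPM against 6.51 and 6.61 CPM, with 2 of 2 tested higher, 0 called and Epcam at an unadjusted p of 0.00788 in edgeR's test. None of the 59 marker genes tested passed an adjusted p of 0.05 in edgeR's quasi-likelihood test, and 14 had an unadjusted p under 0.05, which 12.2% of all tested genes had. DESeq2 gave an adjusted p for 32 of them and called 0. By a chi-square of counts averaged over genes, control replicate 1 stood further from EGCG replicates 1 and 2 (16.0 and 12.4) than control replicate 2 did (7.57 and 6.70), while the control libraries differed from each other by 6.85 and the EGCG libraries by 6.64.

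Colony-stimulating factors act through 2 families of receptors. G-CSF binds the homodimeric receptor Csf3r, and GM-CSF, IL-3 and IL-5 bind an alpha chain of their own that pairs with a shared beta chain, with signals passing through JAK2 and STAT5. M-CSF (Csf1r), stem cell factor (Kit) and FLT3 ligand (Flt3) bind receptor tyrosine kinases of one subfamily. G-CSF and GM-CSF made by tumors are known to drive the accumulation of granulocytic and monocytic MDSCs, while Kit and Flt3 belong mainly to stem and progenitor cells.

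Mice carry a pair of beta chain genes, in contrast with most mammals. Csf2rb encodes the chain shared by GM-CSF, IL-3 and IL-5, and Csf2rb2 encodes a chain that works with IL-3 only. In GRCm38 (GENCODE M21), Csf2rb lies at chr15:78325752-78353847 on the plus strand (ENSMUSG00000071713), and Csf2rb2 at chr15:78282507-78305721 on the minus strand (ENSMUSG00000071714), 20030 bases away. Their coding sequences have 2688 and 2634 bases. Of 2628 aligned bases, 125 differed, an identity of 95.24%, and the longest identical stretch had 242 bases. The sequences bear on the counts, since a read from an identical stretch has no single origin. Of the 31-base words in the transcripts of Csf2rb2, 28.63% also occurred in Csf2rb, and 18.82% of those of Csf2rb occurred in Csf2rb2. The first bases of the identical stretch (coding positions 2083 to 2172 in both genes) and the least alike window of 90 bases (positions 308 to 397 in Csf2rb and 311 to 400 in Csf2rb2) are shown 5′ to 3′. Capitals mark the 16 bases at which the second window differs between the genes (82.22% identical).
Csf2rb and Csf2rb2, identical window: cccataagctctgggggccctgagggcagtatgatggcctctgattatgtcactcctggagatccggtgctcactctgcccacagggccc
Csf2rb, least alike window: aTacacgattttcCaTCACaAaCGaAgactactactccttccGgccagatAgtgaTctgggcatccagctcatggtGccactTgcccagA
Csf2rb2, least alike window: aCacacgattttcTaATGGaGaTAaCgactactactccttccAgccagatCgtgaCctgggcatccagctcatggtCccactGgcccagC

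To compare levels between genes, CPM were divided by the exonic length of each gene in kilobases. Csf3r, the receptor for G-CSF, was by far the most abundant, with 986.7, 1012, 1005 and 1009 CPM per kilobase in control replicates 1 and 2 and EGCG replicates 1 and 2. It made up 67.4% of the summed level of the 8 genes and stood at the 99.8th percentile of all tested genes on this scale. Csf2ra, the alpha chain for GM-CSF, came next at 240.9, 215.9, 229.1 and 206.5 CPM per kilobase, above the other 6 genes in each library. Csf1r and Csf2rb, with means of 101.5 and 99.1 CPM per kilobase over the 4 libraries, could not be ordered. Csf2rb was slightly above Csf1r in both control libraries and below it in both EGCG libraries, and with the length of the longest transcript in place of all exons the means were 147.2 for Csf2rb and 124.6 for Csf1r. Csf2rb2 followed at a mean of 55.3 CPM per kilobase. There was then a large step to Il3ra, the alpha chain for IL-3, at a mean of 5.10 CPM per kilobase, near the middle of all tested genes (percentile 54.6). Kit and Flt3 were the lowest, at 0.944 and 0.631 CPM per kilobase (percentiles 22.5 and 16.5), and the libraries of the 2 genes did not overlap. Thus the chains for G-CSF and GM-CSF stood high in these cells, and the progenitor receptors lay in the lower part of the genes that could be tested.

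**Figure D1:**
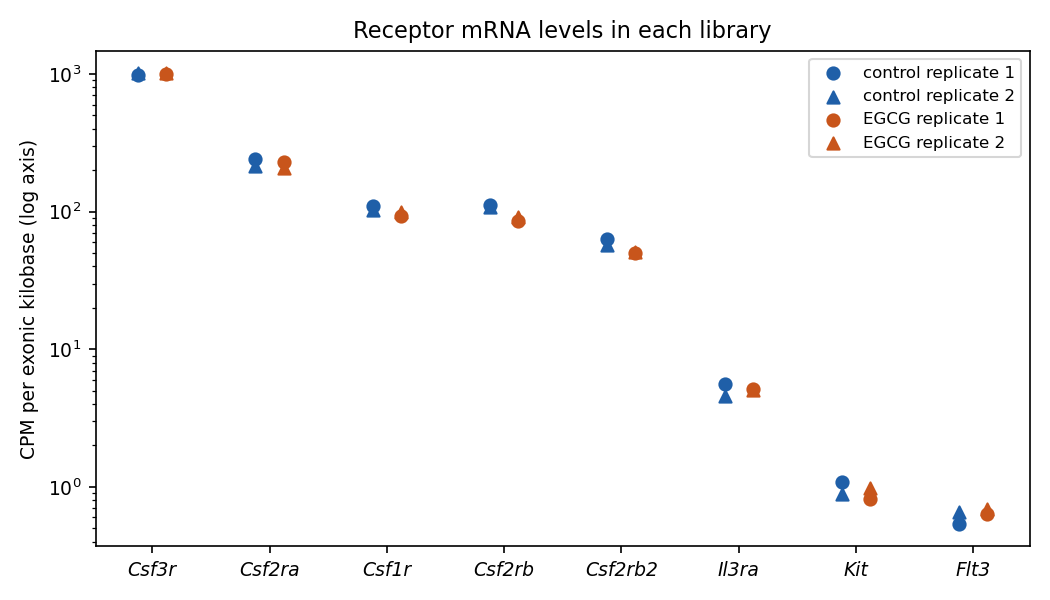
Level of each receptor mRNA in the 4 libraries, in CPM per exonic kilobase on a log axis, with control libraries in blue, EGCG libraries in orange, circles for replicate 1 and triangles for replicate 2. Csf3r lies near 1003 on average and Flt3 near 0.631, and for most genes the 4 points differ far less than the genes do.

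With EGCG, none of the 8 receptor genes passed an adjusted p of 0.05, and those with the smallest p were the beta chain genes, Csf2rb and Csf2rb2, both lower in the EGCG libraries. Csf3r, Csf2ra, Kit, Flt3 and Il3ra had overlapping groups, and Csf1r was slightly lower in both EGCG libraries. The test was edgeR's quasi-likelihood test, adjusted by Benjamini-Hochberg over 14682 tested genes, of which 22 passed (0.15%), 2 higher and 20 lower with EGCG. By sign, 3 of the 8 genes were higher and 5 were lower, with Csf3r and Il3ra turning to lower when scaled by library size only, and their median log2 fold change was -0.095 against 0.003 over all tested genes. That median rested on single libraries, as it was 0.00037 without control replicate 1, while leaving out control replicate 2 gave -0.16. Without adjustment, 2 of 8 had a p under 0.05 with a lower level, which 7.02% of all tested genes had. In 3 of 8 both EGCG libraries lay below both control libraries, as in 21.2% of all tested genes, and in 0 of 8 both lay above, as in 21.5%. DESeq2, as an alternative test, gave an adjusted p for 5 of the 8 and called 1, Csf2rb, against 1.06% of the 6427 genes with such a p. With 2 libraries against 2, an exact permutation test of a single gene cannot give a two-sided p below 0.333.

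**Figure D2:**
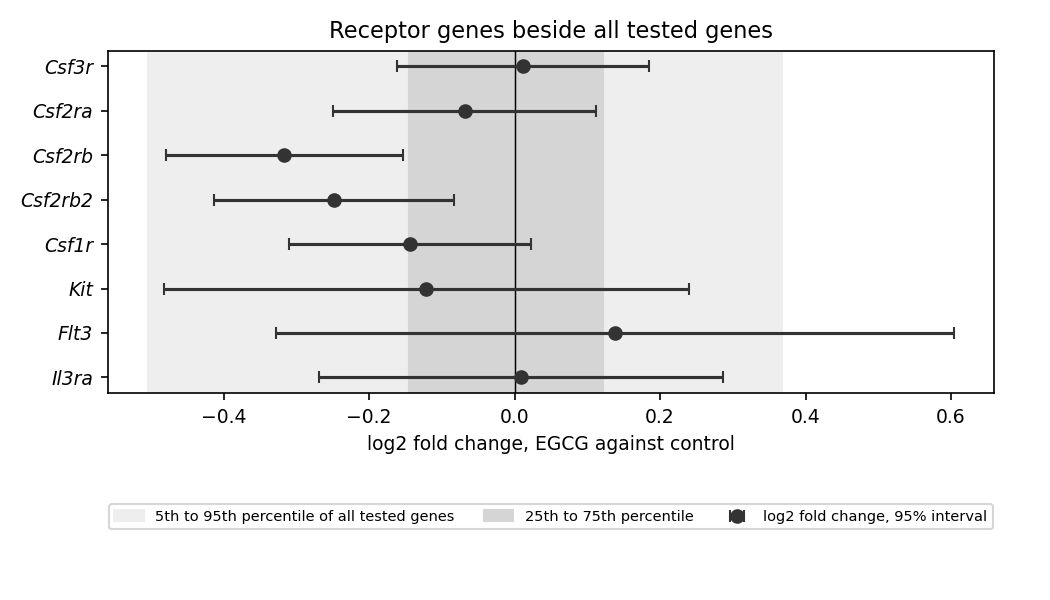
Log2 fold change of each receptor gene, EGCG against control, with its 95% interval from edgeR's quasi-likelihood fit. The shaded bands hold the middle of the 14682 tested genes, from the 5th to the 95th percentile (-0.504 to 0.367) and from the 25th to the 75th (-0.145 to 0.122), and the intervals of Csf2rb and Csf2rb2 lie below 0.

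Csf3r (ENSMUSG00000028859, chr4:126024550-126044440, plus strand) was measured at 3561 and 3652 CPM in the control libraries and at 3628 and 3643 CPM in the EGCG libraries. The EGCG values lay within the range of the control values. The log2 fold change was 0.01 ± 0.08 (SE, n = 2 libraries per group), with a 95% interval from -0.16 to 0.18 and an adjusted p of 0.973 in edgeR's quasi-likelihood test. Part of the transcript is ambiguous: 19.91% of its 31-base words also occur in AC105061.2, a processed pseudogene that is not among the genes counted here.

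Csf2ra (ENSMUSG00000059326, chr19:61223957-61228429, minus strand) was measured at 691.6 and 620 CPM in the control libraries and at 657.8 and 593 CPM in the EGCG libraries. The groups overlapped, and the 2 libraries of each group differed more than the group means did (655.8 ± 50.6 and 625.4 ± 45.9, SD, n = 2). Its log2 fold change was -0.07 ± 0.08 (SE), with a 95% interval from -0.25 to 0.11 and an adjusted p of 0.799 by edgeR's test.

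The common beta chain, Csf2rb, was measured at 812.1 and 787.8 CPM in the control libraries and at 624.3 and 660.4 CPM in the EGCG libraries. Both EGCG libraries were below both control libraries, and the gap between the groups exceeded the difference within either. The means were 799.9 ± 17.2 and 642.4 ± 25.5 CPM (SD, n = 2). The log2 fold change was -0.32 ± 0.08 (SE), a change of -19.7%, with a 95% interval from -0.48 to -0.15. Its unadjusted p of 0.000949 ranked 115 among the tested genes and gave an adjusted p of 0.121 by edgeR's test, which does not pass the threshold. Over 10 other settings of the test the direction was the same and the adjusted p ranged from 0.0153 to 0.593, passing with scaling by library size only (0.0271) and with DESeq2 (0.0153). Without control replicate 2 the adjusted p was 0.0188, and with any other library left out it did not pass.

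The IL-3 beta chain, Csf2rb2, was measured at 298.9 and 270.8 CPM in the control libraries and at 236.3 and 243.2 CPM in the EGCG libraries. Here too both EGCG libraries were below both control libraries, although the control libraries differed from each other by about as much as control replicate 2 differed from EGCG replicate 2. The log2 fold change was -0.25 ± 0.08 (SE), a change of -15.8%, with a 95% interval from -0.41 to -0.08, an unadjusted p of 0.00604 and an adjusted p of 0.228 by edgeR's test. The adjusted p ranged from 0.0952 to 0.678 over the same 10 settings and passed only without control replicate 2 (0.0302), while without control replicate 1 the log2 fold change was -0.17 (adjusted p of 0.775). Since identical stretches such as the one shown above give reads that could be assigned to either gene or left uncounted, the counts of both beta chain genes were also summed and tested as 1 gene. The sum had a log2 fold change of -0.30 ± 0.08 (SE) and an adjusted p of 0.144 by edgeR's test, with a range of 0.0273 to 0.75 over the settings, and 0.0225 without control replicate 2. Fold changes in these libraries were lower for longer genes (Spearman correlation -0.286 across 14666 genes, which are not independent replicates). Csf2rb has 7277 exonic bases and Csf2rb2 has 4740, and with a correction for length their log2 fold changes were -0.27 and -0.24 (adjusted p of 0.229 and 0.305 by edgeR's test).

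Other cell types carry these chains, and their markers did not all go one way. The eosinophil markers (Siglecf, Prg2, Epx and Ccr3) summed to 1061 and 915.3 CPM in the control libraries and to 892.5 and 753.4 CPM in the EGCG libraries, with all 4 lower, 0 called and Epx and Prg2 at an unadjusted p under 0.05 in edgeR's test. The red pulp macrophage markers summed to 322.3 and 340.6 CPM and to 270.1 and 283.2 CPM, with all 6 lower, 0 called and Adgre1 and Vcam1 at an unadjusted p under 0.05, and no marker of either list was at 3 counts or fewer in every library. With a library left out, some passed: Epx, Prg2 and the mast cell and basophil marker Fcer1a without control replicate 2, Prg2 without EGCG replicate 1, Adgre1 without control replicate 1 and C1qc without EGCG replicate 2. The mast cell and basophil markers, of cells that carry the beta chains and Il3ra, summed to 241.8 and 270.3 CPM and to 266.1 and 256 CPM. Of the 6 tested, 4 were higher and 2 lower with 0 called, and Fcer1a and Cma1 were higher with an unadjusted p under 0.05. Il5ra, the alpha chain for IL-5 and a gene of eosinophils, had 96 and 99 counts in the control libraries, against 93 and 75 with EGCG (adjusted p of 0.717 by edgeR's test). The part of these cells in the values of Csf2rb, Csf2rb2 and Csf1r was not tested, and in bulk RNA fewer cells of a type and less RNA per cell cannot be told apart.

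Il3ra (ENSMUSG00000068758, chr14:14346275-14356011, plus strand) had 302 and 243 counts in the control libraries, against 279 and 267 with EGCG. These are 16.5 and 13.6 CPM against 15.4 and 15.0 CPM, so that the EGCG values lay within the control range. The log2 fold change was 0.01 ± 0.13 (SE), with a 95% interval from -0.27 to 0.29 and an adjusted p of 0.985 by edgeR's test. In the annotation, 46 of its exonic bases overlap an antisense gene, Gm48860, and the counting did not use strand.

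Csf1r, the M-CSF receptor and a marker of monocytes and macrophages (ENSMUSG00000024621, chr18:61100598-61132149, plus strand), was measured at 631.8 and 598.2 CPM in the control libraries and at 535.5 and 577.8 CPM in the EGCG libraries. Both EGCG libraries were below both control libraries, but the libraries of a group lay further apart than EGCG replicate 2 and control replicate 2. The log2 fold change was -0.14 ± 0.08 (SE), a change of -9.49%, with a 95% interval from -0.31 to 0.02 and an adjusted p of 0.491 by edgeR's test. Without EGCG replicate 1 the log2 fold change was -0.09. Beside it, the monocyte markers summed to 1010 and 1014 CPM in the control libraries and to 985.1 and 1040 CPM in the EGCG libraries, which overlapped. The exons of Csf1r share 873 bases with Hmgxb3 on the opposite strand, and unstranded counts cannot separate the 2 genes there.

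Kit, the receptor for stem cell factor (ENSMUSG00000005672, chr5:75574916-75656722, plus strand), had 176 and 141 counts in the control libraries, against 133 and 157 with EGCG. The groups overlapped, with a log2 fold change of -0.12 ± 0.17 (SE), a 95% interval from -0.48 to 0.24 and an adjusted p of 0.828 by edgeR's test. Flt3, the receptor of early progenitors and dendritic cell precursors (ENSMUSG00000042817, chr5:147330741-147400489, minus strand), had 61 and 73 counts in the control libraries, against 71 and 76 with EGCG. These groups overlapped as well, and the log2 fold change was 0.14 ± 0.22 (SE), with a 95% interval from -0.33 to 0.60 and an adjusted p of 0.853. It ranged from 0.0036 without control replicate 1 to 0.29 without control replicate 2. At such counts the intervals of both genes are wide, and they leave changes in either direction possible. The progenitor markers, which include Cd34, Myb and Mpo, summed to 671.9 and 660.3 CPM in the control libraries and to 675.6 and 640.6 CPM in the EGCG libraries, again overlapping. The dendritic cell markers summed to 10.9 and 9.18 CPM and to 10.15 and 8.51 CPM, which overlapped too. Of these 6, 2 were higher and 4 lower with 0 called. Xcr1, at 16 and 11 counts against 5 and 7, was lower with an unadjusted p of 0.0480 in edgeR's test (p under 0.05 in 12.2% of all tested genes).

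A receptor for GM-CSF needs both chains, so the ratio of beta to alpha chain mRNA was taken within each library, per exonic kilobase. For each Csf2ra unit there were 0.463 and 0.501 units of Csf2rb in the control libraries, against 0.375 and 0.439 with EGCG. Both EGCG ratios were below both control ratios, a difference of -0.25 on the log2 scale, and it ranged from -0.36 to -0.13 when any one library was left out. The ratio of Csf2rb2 to Csf2ra was 0.262 and 0.265 in the control libraries, against 0.218 and 0.248 with EGCG, again lower in both (log2 difference -0.18, ranging from -0.083 without EGCG replicate 1 to -0.274 without EGCG replicate 2). Between the beta chains themselves, the ratio of Csf2rb2 to Csf2rb was 0.565 and 0.528 in the control libraries, against 0.581 and 0.565 with EGCG, with EGCG replicate 2 and control replicate 1 nearly equal. The level of Csf2rb as a share of that of Csf3r was 0.113 and 0.107 in the control libraries, against 0.0853 and 0.0899 with EGCG (log2 difference -0.33). Csf3r exceeded Csf1r 9.02- and 9.77-fold in the control libraries, against 10.8- and 10.1-fold with EGCG. These ratios do not depend on the scaling between libraries, but they hold no correction for the trend of fold change with gene length. Csf2rb has 7277 exonic bases and Csf2ra has 2871. With the length correction their log2 fold changes lay closer together, at -0.27 and -0.10, against -0.32 and -0.07 without it. For Csf2rb2 the value was -0.24 with the correction and -0.25 without it. They are given as descriptions, and no test was run on them.

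**Figure D3:**
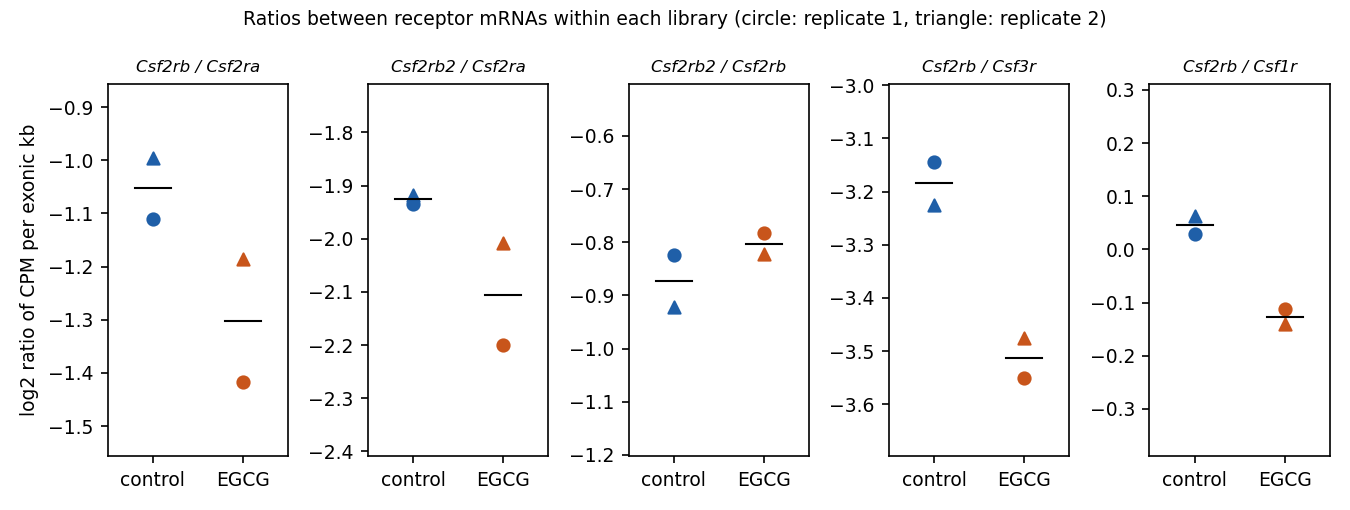
Log2 ratios between receptor mRNAs in each library, computed from CPM per exonic kilobase, with control libraries in blue, EGCG libraries in orange, circles for replicate 1, triangles for replicate 2 and a bar at each group's mean. The ratios of Csf2rb to Csf2ra, Csf3r and Csf1r lie lower in both EGCG libraries than in both control libraries, by 0.249, 0.329 and 0.173 at the means, and all panels span the same range.

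The cells themselves made little mRNA for most ligands of these receptors. Csf3 (G-CSF) had 5 and 15 counts in the control libraries, against 6 and 11 with EGCG, and Csf2 (GM-CSF) had 9 and 9 against 4 and 9. Il3 had between 2 and 5 counts per library and Il34, a second ligand of Csf1r, between 0 and 2. Both lay near the floor of 3 counts, which is 0.163 to 0.169 CPM when scaled by library size only, without TMM. No count was seen for Il5. The exception was Csf1 (M-CSF), at 583.0 and 644.5 CPM in the control libraries, against 496.7 and 548.5 CPM with EGCG. Both EGCG libraries were lower, with a log2 fold change of -0.23 ± 0.08 (SE) and an adjusted p of 0.284 by edgeR's test. Kitl, which encodes stem cell factor, had 116 and 98 counts in the control libraries, against 63 and 65 with EGCG, clearly separated, with a log2 fold change of -0.73 ± 0.20 (SE) and an unadjusted p of 0.00242, but an adjusted p of 0.166 by the same test. The endothelial markers, of a cell type that also makes stem cell factor, summed to 13.03 and 13.77 CPM in the control libraries, against 6.56 and 8.96 CPM with EGCG (2 of 3 tested, both lower, 0 called), and their part in the Kitl values was not tested. With other settings Cdh5 passed with library size only, without control replicate 2 or without EGCG replicate 2, and Kdr without EGCG replicate 2. Flt3l, the ligand of Flt3, was at 5.64 and 4.70 CPM against 6.29 and 5.32 CPM, overlapping (log2 fold change 0.17, or 0.04 to 0.31 with a library left out, adjusted p of 0.783 by edgeR's test). Of the 8 ligands listed, 4 could be tested and 0 passed in edgeR's test, with an unadjusted p under 0.05 for Csf1 and Kitl (0.15% and 12.2% among all tested genes). DESeq2 gave an adjusted p for 1 of the 4, Csf1, which did not pass.

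Among 16 related receptors, 12 could be tested, with 5 higher and 7 lower, and 1 passed the test (0.15% among all tested genes), while 3 had an unadjusted p under 0.05 (12.2%). The one that passed was Il6st, which encodes gp130, the signaling chain shared by the receptors for IL-6, oncostatin M and LIF. It was measured at 66.2 and 53.9 CPM in the control libraries and at 39.3 and 39.8 CPM in the EGCG libraries. Il6st fell, with a log2 fold change of -0.60 ± 0.10 (SE) and an adjusted p of 0.0390 by edgeR's test. The control libraries differed from each other by nearly as much as control replicate 2 differed from the EGCG libraries. Over the other settings its adjusted p ranged from 0.00229 to 0.562, and it did not pass without a filter (0.562), with a minimum count of 30 (0.0571), with upper quartile scaling (0.0592) or with the length correction (0.0737). Il6ra, the alpha chain for IL-6, was at a mean of 290.6 ± 3.59 CPM in the control group and 281 ± 6.44 CPM in the EGCG treatment group (log2 fold change -0.05, adjusted p of 0.843). Il7r (log2 fold change -0.22, or -0.13 without control replicate 1, adjusted p of 0.359) and Il13ra1 (0.23, adjusted p of 0.348) had an unadjusted p under 0.05 only.

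All 31 proximal signaling genes listed, the kinases, adaptors and STATs directly downstream of these receptors, could be tested. By sign, 11 were higher and 20 lower, and their median log2 fold change was -0.03 (0.0048 with the length correction, -0.06 with library size only). That median was -0.0099 without EGCG replicate 1 and -0.052 without EGCG replicate 2. In edgeR's test 0 passed, with 3 at an unadjusted p under 0.05 (12.2% among all tested genes). DESeq2 gave an adjusted p for 30 of the 31 and called 1, Cbl (1.06% among the 6427 genes with such a p). This gene, a ubiquitin ligase that marks activated receptors such as Kit and Csf1r for degradation, was at 576.7 and 583.6 CPM in the control libraries and at 485.5 and 459.3 CPM in the EGCG libraries. The groups were well apart, with a log2 fold change of -0.30 ± 0.07 (SE) and an adjusted p of 0.133 by edgeR's test (0.033 to 0.593 over the other settings). With the length correction it was -0.18 (adjusted p of 0.433). Jak2, the kinase bound to the beta chain, was at 363.6 and 406.9 CPM against 319.3 and 347.6 CPM, with a log2 fold change of -0.21 ± 0.08 (SE), or -0.12 without control replicate 2, and an adjusted p of 0.332. Map2k1, which encodes the kinase MEK1, was higher in both EGCG libraries, at 182.4 and 203.2 CPM against 163.2 and 178.0 CPM (log2 fold change 0.18, or 0.10 without EGCG replicate 2, adjusted p of 0.403 by edgeR's test). Stat5b, a main transcription factor downstream of these chains, was at means of 199.3 ± 2.05 and 191.4 ± 4.43 CPM (SD, n = 2; log2 fold change -0.06, adjusted p of 0.802 by edgeR's test).

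The 16 genes that cytokine receptors induce or that restrain them were all tested, with 5 higher and 11 lower, a median log2 fold change of -0.07 (-0.255 without EGCG replicate 2, and -0.015 without EGCG replicate 1 or without control replicate 2) and 0 called by edgeR's test. An unadjusted p under 0.05 was found for 4 of them (12.2% among all tested genes), and DESeq2 called 2 of the 11 with an adjusted p, Cish and Bcl6 (1.06% among the 6427 such genes). Cish, a STAT5 target that encodes an inhibitor of cytokine signaling, was at 30.8 and 28.2 CPM in the control libraries and at 19.5 and 21.5 CPM in the EGCG libraries. The groups did not overlap, and the log2 fold change was -0.53 ± 0.11 (SE), with an unadjusted p of 0.000205 and an adjusted p of 0.0717 by edgeR's test (0.0143 to 0.593 over the other settings). Cish passed without control replicate 2 (0.00104) or without EGCG replicate 2 (0.0116). Socs2, of the same inhibitor family, was at 8.05 and 9.12 CPM against 4.96 and 5.94 CPM, with a log2 fold change of -0.66 ± 0.18 (SE) and an adjusted p of 0.162. Spred1, an inhibitor of the Ras and MAP kinase cascade, had a log2 fold change of -0.41 ± 0.13 (SE) and an adjusted p of 0.236. Bcl6, a transcriptional repressor, was higher with EGCG, at 154.8 and 150.4 CPM against 123.8 and 116.5 CPM in the control libraries. Its log2 fold change was 0.34 ± 0.07 (SE), with an adjusted p of 0.0870 by edgeR's test (0.0304 to 0.593 over the other settings), and it passed without control replicate 1 (0.0134) or without EGCG replicate 2 (0.0433). Socs3, the inhibitor most tied to G-CSF and IL-6 receptors, was at means of 88.7 ± 1.97 and 79.2 ± 9.01 CPM, with an adjusted p of 0.488, and was chosen for mention after its values were seen, as were Stat5b, Il6ra, Il5ra and Spi1.

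Of 12 genes that set the level of these receptors, by transcription or by shedding from the surface, all were tested. There were 8 higher and 4 lower, with a median log2 fold change of 0.02. That median turned to -0.017 with library size only and to -0.0079 without EGCG replicate 2, and was 0.0037 without control replicate 2. In edgeR's test 0 passed, with 2 at an unadjusted p under 0.05 (12.2% among all tested genes). In DESeq2, 0 passed among the 11 with an adjusted p. Cebpb, a factor of emergency granulopoiesis, was at 414.2 and 405.8 CPM in the control libraries, against 439.9 and 514.5 CPM with EGCG (log2 fold change 0.22, adjusted p of 0.324 by edgeR's test), and without EGCG replicate 2 the log2 fold change was 0.10. Klf4, a factor of monocyte differentiation, was at 33.6 and 29.3 CPM against 21.2 and 28.3 CPM (log2 fold change -0.34, adjusted p of 0.311). Klf4 passed without control replicate 2 (adjusted p of 0.0228) or without EGCG replicate 2 (0.0191, log2 fold change -0.57), and its log2 fold change was -0.15 without EGCG replicate 1 (adjusted p of 0.756). Spi1, which encodes PU.1, a factor long tied to the promoters of Csf1r, Csf3r and Csf2ra, was at means of 877.4 ± 6.03 and 952.3 ± 15.2 CPM (log2 fold change 0.12, adjusted p of 0.570 by edgeR's test).

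**Figure D4:**
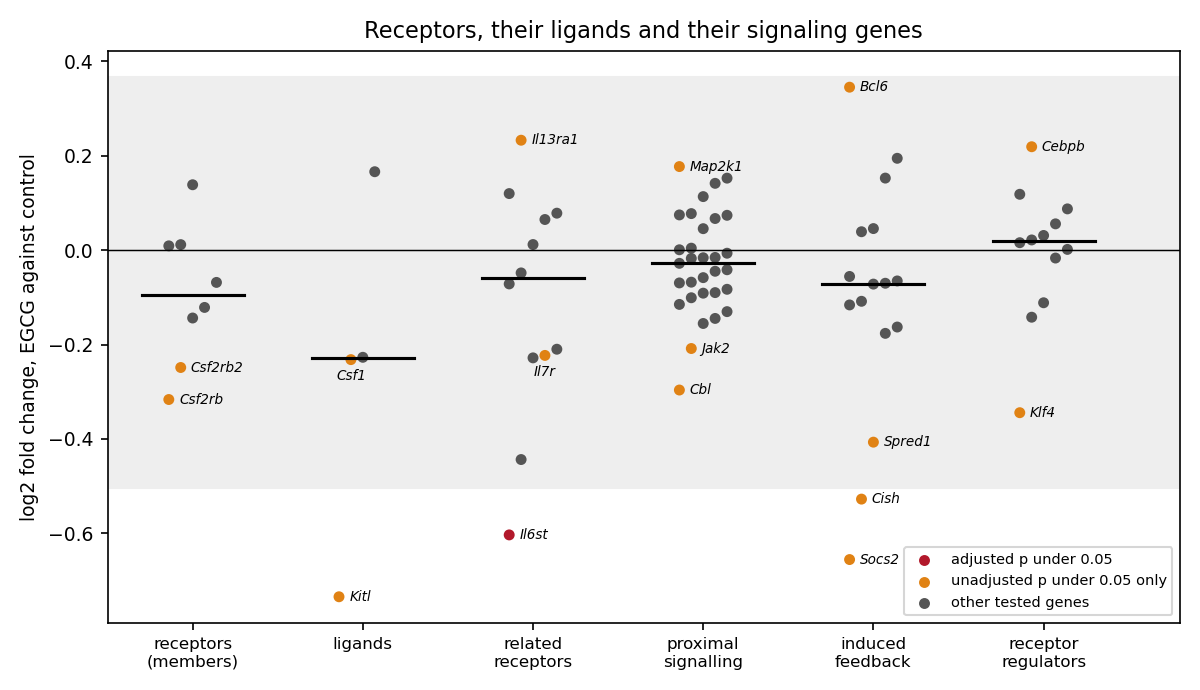
Log2 fold change of every tested gene in the receptor set and in the 5 gene lists around it, EGCG against control, with a bar at each list's median and the 5th to 95th percentile of all tested genes shaded (-0.504 to 0.367). Il6st, in red, is the only gene shown that passed the adjusted threshold, and orange points had an unadjusted p under 0.05 only.

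The genes beside the beta chain pair on chromosome 15 were read as a comparison for the region. Ncf4, which encodes the p40phox subunit of the phagocyte oxidase and lies next to Csf2rb2, was at 818.5 and 822.8 CPM in the control libraries and at 889.8 and 879.4 CPM in the EGCG libraries (log2 fold change 0.11, adjusted p of 0.603 by edgeR's test). On the other side, Tst and Mpst, which encode sulfurtransferases, both had log2 fold changes of 0.29 (adjusted p of 0.230 and 0.267 by edgeR's test). Kctd17, the next tested gene on that side, was lower, with 46 and 39 counts in the control libraries, against 31 and 27 with EGCG (log2 fold change -0.54, adjusted p of 0.483 by edgeR's test). The genes whose pattern over the 4 libraries was most like that of Csf2rb, among 407 genes with a mean CPM within 2-fold of its own, were Akap13, Emilin2 and Cbl. Their root mean square differences from it were 0.0529, 0.0559 and 0.0617 on the centered log2 scale, and Akap13 and Emilin2 had log2 fold changes of -0.21 and -0.22. Since the genes were picked for their likeness to Csf2rb in these same 4 libraries, their lower level with EGCG follows from the choice.

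Promoter sequence was at hand for 6 of the 8 genes (RefSeq, GRCm38.p6), and not for Csf2rb or Csf1r. In the 250 bases before the start site, on both strands, GAGGAA, the core bound by PU.1, occurred in 4 of the 6 (Csf2ra, Csf2rb2, Csf3r and Kit) and in 23.25% of 32851 promoters. TTGNNNAA, a C/EBP-type motif, occurred in Csf2ra and Il3ra and in 33.33% of all promoters. TTCNNNGAA, the STAT5-type motif, occurred in Csf2rb2 alone of the 6 and in 7.02% of all promoters. The promoter of Csf2rb2 is shown for this motif, as the one promoter at hand of the beta chain genes (chr15:78305722-78305971, minus strand). It runs 5′ to 3′ with the PU.1-type core (here on the opposite strand) and the STAT5-type motif in capitals, and a match describes the letters only. A stretch could count for more than 1 motif.
Csf2rb2, promoter: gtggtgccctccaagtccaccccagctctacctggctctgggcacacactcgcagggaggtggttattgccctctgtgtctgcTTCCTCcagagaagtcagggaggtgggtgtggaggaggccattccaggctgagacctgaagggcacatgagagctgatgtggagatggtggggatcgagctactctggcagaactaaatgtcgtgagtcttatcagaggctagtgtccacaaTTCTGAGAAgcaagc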

How the data were processed

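RNA from 4 MDSC libraries (control and EGCG, 2 each) was sequenced. Per the labels and the study's methods, the authors used bcl2fastq 1.8.4, FastQC, STAR 2.6.0c (GRCm38) and featureCounts 1.6.2, counted reads per Ensembl gene without regard to strand, and deposited whole-number counts without normalization. In the count table, 0 lines named no gene and 0 columns belonged to other samples. How reads matching several genes were counted is not given in the sources used here.

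Genes were filtered with filterByExpr (minimum count of 10), scaled by TMM and compared with edgeR 4.0.16 (R 4.3.3; quasi-likelihood test in its legacy form, no block). Benjamini-Hochberg adjustment covered all 14682 tested genes, and the threshold was 0.05. Standard errors are the log2 fold change divided by the square root of F. Positions, exonic lengths and 31-base words came from GENCODE M21, and pairwise alignment used Biopython 1.88. The procedure was first tested on simulated data.

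The receptor genes, the gene lists (ligands, related receptors, proximal signaling, induced feedback and receptor regulators) and the cell type markers were written by hand with earlier results of these data known. Named are all 8 receptors, every ligand, list genes with an adjusted p under 0.05, up to 3 genes per direction and list with the smallest unadjusted p under 0.05, and the 3 genes most like the receptor with the smallest p. Alternatives were other filters, scalings and fits, DESeq2 1.42.0, a length correction (loess, span 0.4), a replicate block and leaving out each library. The microarray and qRT-PCR data were not analyzed here, and the qRT-PCR result for Cish is given as the study reported it.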

Additional observations from a re-analysis of the deposited data

How the results depend on the processing

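Against 22 called among all tested genes, edgeR's test called 0 without a filter (1795 at an unadjusted p under 0.05), 10 with a minimum count of 30, 151 with library size only, 11 with upper quartile scaling, 63 with the robust fit and 5 with the length correction, DESeq2 called 68 of the filtered genes, and with a library left out, 93 to 540, the highest being without control replicate 2. Receptor genes called numbered 1 with library size only and 1 with DESeq2 (Csf2rb), and 0 to 2 with a library left out. Pathway genes called (1, Il6st) numbered 0 without a filter, 0 with a minimum count of 30, 0 with upper quartile scaling, 0 with the length correction, 3 with library size only, 3 with the robust fit, 4 with DESeq2 and 1 to 4 with a library left out. The summed beta chains passed with library size only (log2 fold change -0.334) and DESeq2 (-0.298), and ranged from -0.334 to -0.260 with a library left out. Some genes switched sign between settings. Csf3r did so with library size only (-0.023), the length correction (-0.0022) and left-out libraries (-0.0028 to 0.032), and Il3ra likewise (-0.028, -0.022, and -0.123 to 0.161). With left-out libraries only, Csf2ra (-0.145 to 0.016), Kit (-0.257 to 0.034) and Csf3 (-0.816 to 0.774, at 5 to 15 counts per library) switched too. The causes were not tested. Of 109 values with an adjusted p for the receptors under these settings, 94 kept the direction and the side of the threshold, 4 newly passed and 11 switched sign, and of 218 for the other 16 named genes, 199 kept both. Deviations of same-numbered libraries were not correlated (r = 0.02 across 14682 genes), so the numbers were not taken as pairs, and the replicate block called 30 of all tested genes, 0 receptors and 1 pathway gene, with the beta chain sum at -0.298. DESeq2 gave no adjusted p for Kit, Flt3, Il3ra, Csf3, Kitl, Flt3l, Socs2 and Spred1. With a library left out, the lone library is assumed to vary like the other group. At these depths, Kit and Flt3 rest on 61 to 176 counts per library.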
